A study of Mus musculus with 12 samples.

Results

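Mitochondrial ribosomal protein genes, chosen as every gene whose platform symbol begins with Mrpl or Mrps followed by a number, were followed in the mouse striatum. The choice used the gene name and no measured value. It gave 74 genes of the 12393 genes that had a probe set of 1 symbol, and of several probe sets for a gene the one with the highest average signal across the 12 arrays was taken. All 74 lay above the 40th percentile of all probe sets on all 12 arrays, and all 74 were among the 8256 genes tested. Of the 74, 49 encode proteins of the large mitoribosomal subunit and 24 proteins of the small subunit, while Mrps36 encodes a protein that is now assigned to the 2-oxoglutarate dehydrogenase complex. Mrps18a and Mrps30 keep names of the small subunit but encode proteins of the large one, and they are counted there. Probe sets that name Mrpl30, Mrpl53 or Mrps34 together with another gene were left out, and Mrps34 is represented by another probe set.

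Mitochondria have their own ribosome, which translates the few proteins encoded by mitochondrial DNA, all of them core subunits of the oxidative phosphorylation complexes. Its ribosomal RNAs come from mitochondrial DNA and are transcribed by the mitochondrial RNA polymerase, but every one of its proteins is encoded in the nucleus, made on cytosolic ribosomes and imported. Some of its proteins descend from the bacterial ribosome and others were added in mitochondria, and inherited defects in several of them cause disease of tissues with high energy demand, the brain included.

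The arrays came from C57Bl/6 mice, 1 array per mouse and 3 mice in each of 4 groups: TIF-IA D1RCre mutants aged 13 weeks, controls aged 13 weeks, TIF-IA D1RCre mutants aged 9 weeks and controls aged 9 weeks. The series text also speaks of 5 arrays per condition, and the 12 arrays held here were analysed. TIF-IA, the product of Rrn3, recruits RNA polymerase I to the nuclear ribosomal RNA genes, whose products build the cytosolic ribosome. The Cre driver is that of the D1 dopamine receptor, which marks a part of the medium spiny neurons, the main neurons of the striatum. The labels name medium spiny neurons as the cell type, but the RNA was extracted from striatum, and markers of astrocytes (5 of 5), microglia (6 of 6) and oligodendrocytes (4 of 4) lay above the 40th percentile on all arrays. In such bulk tissue, fewer cells of a type and less RNA per cell cannot be told apart.

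Rrn3 read 7.72, 7.58 and 7.18 on the log2 scale in mutants at 13 weeks, against 7.96, 7.54 and 8.04 in controls, overlapping groups (log2 difference, mutant minus control, -0.35 ± 0.18, SE from limma, adjusted p = 0.128). At 9 weeks it read 6.90, 6.96 and 6.91 in mutants, against 8.0, 7.97 and 8.20 in controls, and fell by 1.13 ± 0.18 (adjusted p = 0.00748). All 6 medium spiny neuron markers tested fell at 13 weeks (median log2 difference -2.01), while all 5 astrocyte markers (median 2.10) and all 6 microglial markers (median 2.54) rose. At 9 weeks none of these passed at an adjusted p under 0.05 (limma). The array of the third control at 13 weeks stood apart, with a mean absolute deviation from its group mean of 0.41 over all genes and 0.28 over the mitochondrial ribosomal protein genes, where the next highest array had 0.26 and 0.21. The 3 thalamus markers averaged 6.70 in the third mutant at 9 weeks and 6.78 in the first control at 13 weeks, against 3.27 to 4.53 on the other arrays. At 9 weeks the group means of Slc17a6 and Calb2 were 4.63 and 4.50 in mutants and 3.16 and 2.62 in controls. At 13 weeks they were 2.83 and 2.93 in mutants and 5.13 and 5.34 in controls. Tcf7l2 did not follow, with 4.24 and 4.17 at 9 weeks and 4.77 and 4.46 at 13 weeks in mutants and controls. Read from Xist and Eif2s3y, all 3 mutants at 13 weeks and 1 mouse in each other group were female.

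At 9 weeks the mitochondrial ribosomal protein genes lay higher in the mutants. The median over the 74 genes was 9.45, 9.57 and 9.59 in the mutants, against 9.26, 9.26 and 9.25 in the controls, and every mutant array was above every control array. Taken relative to the median of all tested genes on the same array, the values were 1.63, 1.75 and 1.78 in mutants and 1.36, 1.40 and 1.37 in controls, again without overlap. Of the 74 genes, 63 had a positive difference, compared with 47.5% of all genes tested, and the median log2 difference was 0.31, compared with -0.02 over all genes.

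**Figure D1:**
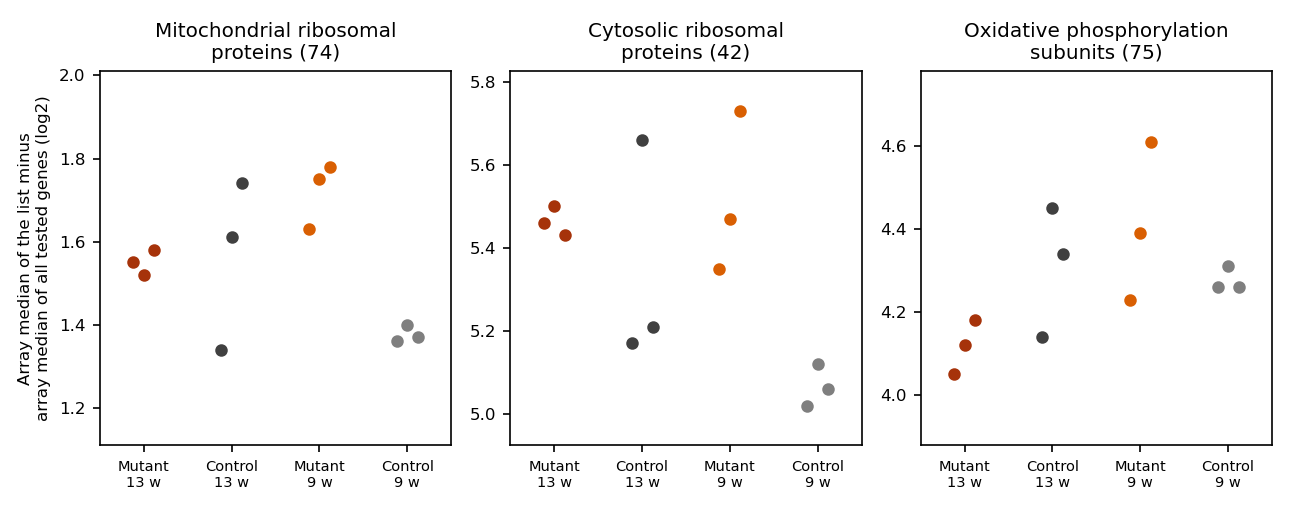
Each point is 1 array, and the y axis gives the array's median over a gene list minus its median over all tested genes (log2), for mitochondrial ribosomal proteins, cytosolic ribosomal proteins and oxidative phosphorylation subunits, by group. For the mitochondrial list the 9-week mutants lie between 1.63 and 1.78, above the 9-week controls at 1.36 to 1.40, while the 13-week mutants (1.52 to 1.58) lie within the range of the 13-week controls (1.34 to 1.74). For the cytosolic list the 9-week mutants (5.35 to 5.73) also lie above the 9-week controls (5.02 to 5.12). For oxidative phosphorylation these groups overlap (4.23 to 4.61 and 4.26 to 4.31).

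Tested gene by gene, 9 of the 74 rose at 9 weeks and 0 fell at an adjusted p under 0.05 (limma, Benjamini-Hochberg over 8256 genes), which is 12.2% of the list where 5% of all genes passed, 2.02% as rises and 2.98% as falls. At an unadjusted p under 0.05 there were 33 of 74, against 21.4% of all genes. In 41 genes all 3 mutants lay above all 3 controls, against 15% of all genes, and in 3 genes (Mrpl36, Mrpl49 and Mrps17) all mutants lay below, against 20.6% of all genes. The small subunit had 5 rises among 24 genes and a median of 0.41, and the large subunit had 4 among 49 and a median of 0.25. Genes classed here as having a bacterial homologue (4 of 41 rose, median 0.25) and genes classed as added in mitochondria (2 of 29 rose, median 0.35) both had positive medians. Mrpl55 was counted in the second class, and its place there is uncertain. The 3 genes of the S18 family and Mrps36 were kept out of both classes. A difference between these classes was not tested.

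The family of bacterial ribosomal protein S18 has 3 mammalian members, and all 3 rose at 9 weeks. Mrps18a, whose product sits in the large subunit, read 10.15, 10.39 and 10.22 in mutants, against 9.03, 9.45 and 9.22 in controls. The groups lay about 1 log2 unit apart and did not overlap, a rise of 1.02 ± 0.18 (SE, n = 3 each, 2.03-fold, adjusted p = 0.0152). Mrps18b, a small-subunit protein, read 9.04, 8.96 and 8.94 in mutants and 8.18, 8.41 and 8.31 in controls (0.68 ± 0.14, adjusted p = 0.0252). Mrps18c, the third paralog, read 10.48, 10.58 and 10.64 in mutants and 9.87, 9.94 and 9.78 in controls (0.70 ± 0.17, adjusted p = 0.037). In both genes the mutants were tightly grouped and clear of the controls.

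Among the other small-subunit genes, Mrps22, a mitochondria-specific protein whose inherited loss in humans causes a disorder of oxidative phosphorylation, read 9.93, 9.89 and 9.56 in mutants and 8.89, 9.09 and 9.10 in controls. The groups did not overlap, and the rise was 0.77 ± 0.15 (adjusted p = 0.0222). Mrps7, the homologue of the bacterial protein that starts the folding of the head of the small subunit, read 9.53, 9.83 and 9.77 in mutants and 9.00, 9.15 and 9.06 in controls (0.64 ± 0.15, adjusted p = 0.0333). Mrps24, the homologue of bacterial S3, read 10.53, 10.74 and 11.11 in mutants and 10.01, 9.92 and 10.15 in controls (0.77 ± 0.19, adjusted p = 0.0449). The third mutant array was the highest, and another Mrps24 probe set differed by 0.63 in the same direction.

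In the large subunit, Mrpl13, the homologue of bacterial L13, read 10.89, 11.27 and 11.53 in mutants and 10.38, 10.46 and 10.59 in controls (0.75 ± 0.18, adjusted p = 0.0414). Its 2 other probe sets past the filter differed by 0.55 and 0.90. Mrpl42, a mitochondria-specific protein, read 10.97, 10.99 and 11.10 in mutants and 10.58, 10.41 and 10.35 in controls (0.57 ± 0.14, adjusted p = 0.0412). Mrpl18, which has been linked in human cells to the import of 5S ribosomal RNA, read 10.12, 9.85 and 9.77 in mutants and 9.25, 9.19 and 9.44 in controls (0.62 ± 0.16, adjusted p = 0.0472). In each of these genes the groups did not overlap.

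Further members had positive differences that did not pass, most of them smaller than those of the 9 genes. Mrps9 differed by 0.71 ± 0.25 (adjusted p = 0.132), with the third mutant at 8.19 close to the second control at 8.01. Mrps16, Mrps30 and Mrps36 differed by 0.44, 0.45 and 0.46, with adjusted p of 0.259, 0.181 and 0.192. Mrpl12, whose product forms the stalk that binds translation factors, differed by 0.31 ± 0.31 (adjusted p = 0.62). Smaller differences were measured for Mrpl44 (0.21) and for Mrpl45 (0.14), whose product lies where new chains leave the ribosome toward the inner membrane. Mrpl52 differed by 0.56 and Mrps5 by 0.48 (adjusted p = 0.15 and 0.178), while Mrpl3, Mrpl14, Mrpl27, Mrpl41 and Mrps12 lay between -0.26 and -0.02. Of the probe sets used, that of Mrpl36 had the most negative difference, -0.40 ± 0.22 (adjusted p = 0.32), with mutants at 7.44, 7.49 and 7.54 and controls at 7.94, 8.09 and 7.64. Other probe sets past the filter differed by 0.38 for Mrpl3, -0.53 for Mrpl41, and 0.33 and -0.16 for Mrpl44. Those of Mrpl52 differed by 0.86 and 0.84, that of Mrps5 by 0.99 and those of Mrps9 by 0.25 and 0.29. Of 33 such probe sets in the list, 23 had the sign of the one used.

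**Figure D2:**
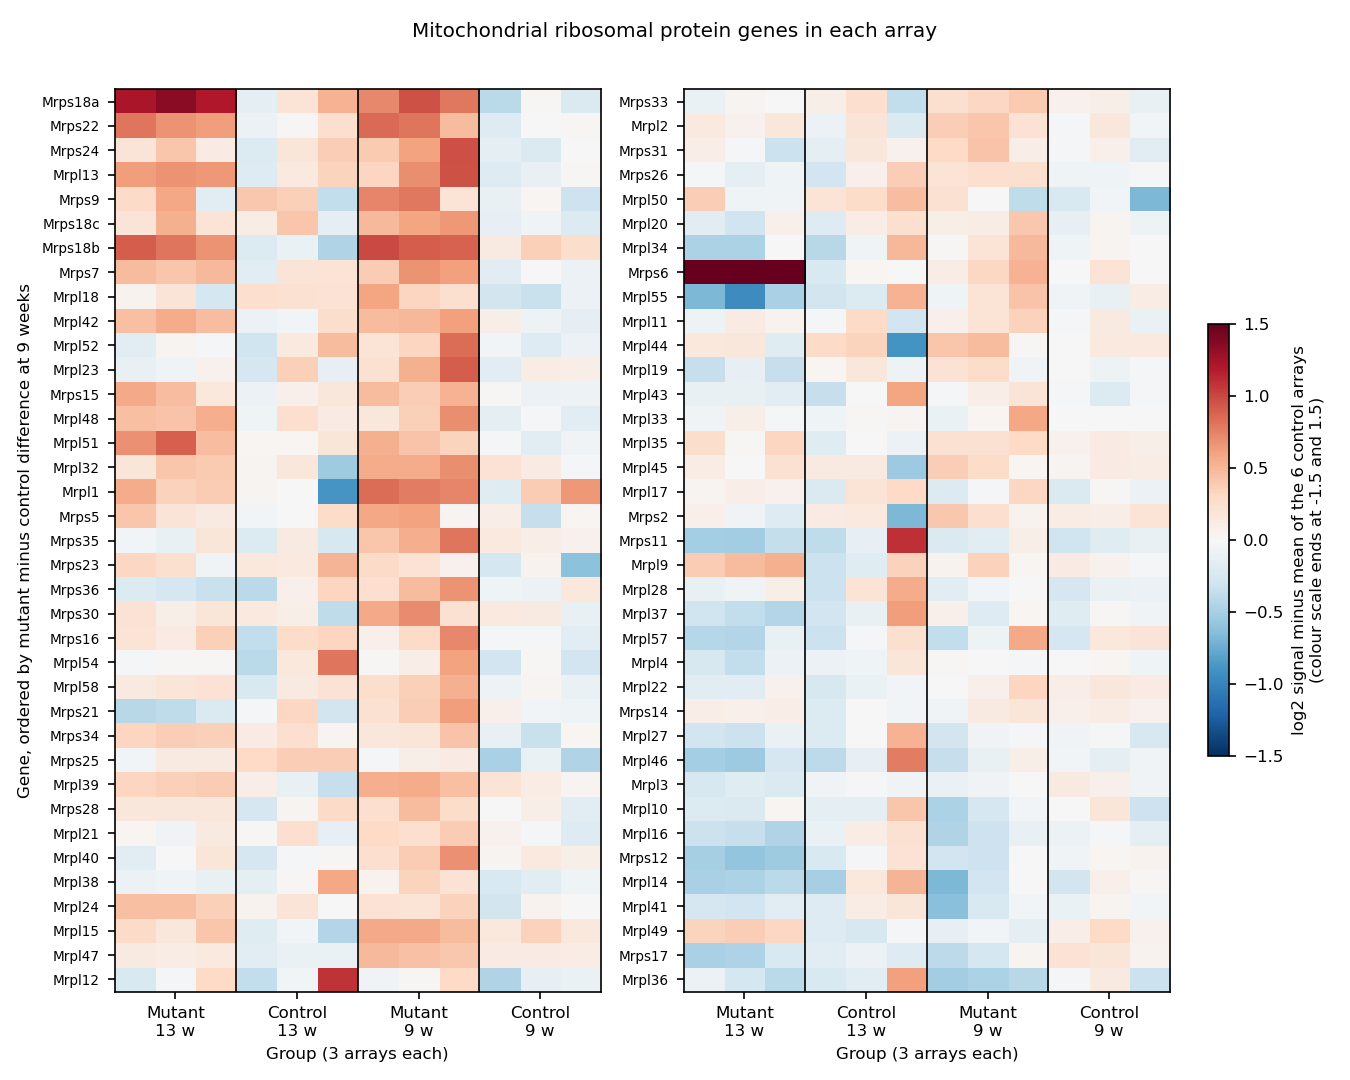
Heat map of the 74 genes (rows, ordered by the mutant minus control difference at 9 weeks) on the 12 arrays (columns, 3 per group), coloured by log2 signal minus the mean of the 6 control arrays, with the colour scale ending at -1.5 and 1.5. The 9-week mutant columns lie above the control mean in most rows, the 13-week mutant columns are mixed, with Mrps18a, Mrps18b and Mrps6 high, and the third control at 13 weeks departs from its group in both directions.

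When single arrays were left out, the number of rises at 9 weeks was not stable, while the median of the list moved little. Leaving out the 9-week controls 1, 2 or 3 gave 0, 1 or 0 rises and leaving out the 9-week mutants 1, 2 or 3 gave 2, 0 or 3. Where the count was 0, 23 or 24 members still had an unadjusted p under 0.05. The spread is shared by all arrays, so 13-week arrays mattered too: without mutant 1 or 2 the count was 3 or 4, without control 2 it was 5, and without control 3 it was 18. No member fell in any of these fits, the median difference stayed between 0.29 and 0.34, and 58 to 64 of 74 differences were positive. Other values moved with genotype at 9 weeks, and their part in the shift was not tested. The 3′ minus 5′ signal of the actin control probe sets was 1.16, 1.22 and 1.30 in mutants, against 1.57, 1.32 and 1.96 in controls, and the mean of the medium spiny neuron markers was 11.57 to 11.96 in mutants, against 12.27 to 12.30 in controls. The mean of the astrocyte markers was 9.40 to 9.88 in mutants, against 9.13 to 9.36 in controls.

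The promoters of the genes that rose were read for letters that several nuclear regulators of mitochondrial genes are known to bind. Windows of 300 bases, from 250 before to 50 after the annotated start, were taken from RefSeq (GRCm38.p6) for 65 of the 74 genes, 71 windows in all. Both strands were searched for 8 motifs, none of which contains another. ETS factors (CCGGAAG) had a match in 33.8% of the member windows, against 17.6% of the windows of all tested genes and 8.86% of all 32851 windows. YY1 (AAGATGGC) had a match in 15.5%, against 4.53% and 2.75%, and the palindromic consensus of NRF1 in 16.9%, against 10.4% and 4.6%. SP1 (GGGCGG, 54.9% against 63.1% and 35.7%), the E-box (CACGTG, 9.86% against 10.1% and 7.15%) and CREB (TGACGTCA, 2.82% against 2.96% and 1.79%) were nearer to the tested genes. ERR (TCAAGGTCA) and ATF4 (TGATGNAA) had no match in a member window, against 0.317% and 2.3% of the windows of tested genes.

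Of the 8 windows of genes that rose at 9 weeks, 5 held the ETS letters, 4 the YY1 letters and 0 the NRF1 letters, and all 8 held ETS or YY1, compared with 39.7% of the 63 other member windows and 21.1% of the windows of tested genes. The SP1 letters were in 7 of the 8, compared with 50.8% of the other member windows. Of the 10 windows of genes that rose at 13 weeks, 4 held the ETS letters, 3 the YY1 letters, 2 the NRF1 letters and 7 the SP1 letters. These windows belong to genes picked by their values, and ETS and YY1 were joined after the matches of all 8 motifs were seen, so the counts are a description. The windows are shown for the 3 genes of the S18 family, for Mrps22 and Mrps7, and for Mrps6, the gene with the largest difference at 13 weeks. They run 5′ to 3′ on the gene's strand in GRCm38.p6, and capitals mark matches to the ETS, YY1 and NRF1 letters on either strand.
Mrps18a, chr17:46110754-46111053, + strand: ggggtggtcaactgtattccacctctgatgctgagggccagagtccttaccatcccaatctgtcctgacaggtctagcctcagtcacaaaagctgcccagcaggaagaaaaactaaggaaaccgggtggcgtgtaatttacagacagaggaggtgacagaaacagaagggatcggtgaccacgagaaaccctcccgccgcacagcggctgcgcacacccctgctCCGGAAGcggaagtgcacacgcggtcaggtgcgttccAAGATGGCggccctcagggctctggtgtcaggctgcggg
Mrps18b, chr17:35916391-35916690, - strand: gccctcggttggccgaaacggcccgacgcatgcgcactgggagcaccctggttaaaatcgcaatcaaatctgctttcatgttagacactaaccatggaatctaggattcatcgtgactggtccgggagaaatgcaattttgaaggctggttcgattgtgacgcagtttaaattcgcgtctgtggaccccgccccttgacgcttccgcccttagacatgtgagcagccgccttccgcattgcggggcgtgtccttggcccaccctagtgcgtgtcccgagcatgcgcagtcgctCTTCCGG
Mrps18c, chr5:100798509-100798808, + strand: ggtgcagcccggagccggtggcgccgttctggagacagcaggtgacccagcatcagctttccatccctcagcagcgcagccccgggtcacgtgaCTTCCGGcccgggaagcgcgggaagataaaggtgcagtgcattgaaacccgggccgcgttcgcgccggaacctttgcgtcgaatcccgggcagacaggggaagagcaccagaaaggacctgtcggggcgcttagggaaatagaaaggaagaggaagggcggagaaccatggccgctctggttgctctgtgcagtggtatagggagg
Mrps22, chr9:98601630-98601929, - strand: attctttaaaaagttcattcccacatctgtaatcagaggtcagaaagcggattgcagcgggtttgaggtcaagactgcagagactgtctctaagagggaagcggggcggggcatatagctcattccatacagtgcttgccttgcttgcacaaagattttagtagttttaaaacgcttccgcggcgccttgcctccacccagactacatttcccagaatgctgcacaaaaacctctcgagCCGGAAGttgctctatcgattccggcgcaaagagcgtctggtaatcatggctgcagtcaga
Mrps7, chr11:115603890-115604189, + strand: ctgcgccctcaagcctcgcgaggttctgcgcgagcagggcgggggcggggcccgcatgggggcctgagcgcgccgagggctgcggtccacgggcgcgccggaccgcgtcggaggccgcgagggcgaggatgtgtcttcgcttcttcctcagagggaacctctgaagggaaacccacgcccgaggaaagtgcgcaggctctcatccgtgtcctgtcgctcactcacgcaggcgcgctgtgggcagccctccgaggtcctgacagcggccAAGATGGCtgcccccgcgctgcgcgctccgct
Mrps6, chr16:92058086-92058385, + strand: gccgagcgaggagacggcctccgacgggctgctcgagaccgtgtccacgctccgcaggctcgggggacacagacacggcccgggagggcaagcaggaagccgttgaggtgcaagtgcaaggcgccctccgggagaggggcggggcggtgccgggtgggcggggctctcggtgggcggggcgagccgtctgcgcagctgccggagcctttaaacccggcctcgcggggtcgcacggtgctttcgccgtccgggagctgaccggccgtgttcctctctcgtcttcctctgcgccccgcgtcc
Counting the first base after the 250 upstream bases as 1, the ETS letters of Mrps18a begin at -26 and its YY1 letters at 12. The YY1 letters of Mrps7 begin at 19, and those of Mrpl42 and Mrps24 at 28 and 37. Of 11 YY1 matches in all member windows, 7 lay after the start and all 7 of these were on the gene's strand, whereas 9 of 28 ETS matches lay after the start. The YY1 letters contain ATG, as a start codon does, and whether matches after the start open the coding sequence was not tested. Mrps6 had no match to the ETS, YY1 or NRF1 letters in this window.

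At 13 weeks the median difference of the list was near that of all genes, and single genes differed in both directions. The median over the 74 genes was 9.34, 9.31 and 9.38 in mutants, against 9.12, 9.39 and 9.48 in controls. The mutant arrays lay close together within the wide range of the controls. The median log2 difference was 0.02, compared with 0.00 over all genes, and 38 of 74 differences were positive. The median of the list was -0.02 without the first control at 13 weeks and 0.13 without the second. Of the 74 genes, 12 rose and 3 fell, 20.3% of the list where 45.3% of all genes passed, 23.4% as rises and 21.9% as falls. All 3 mutants lay above all 3 controls in 20 genes and below them in 9, against 27.8% and 26.8% of all genes. At an unadjusted p under 0.05 there were 23 of 74, against 53% of all genes. When each array was centred on its median over all probe sets, the median of all genes moved to -0.16 and that of the list to -0.14. The list median stayed 0.02 above that of all genes, and 5 members rose and 11 fell. Without the first control at 13 weeks 9 rose and 8 fell, without the third control 13 rose and 5 fell, without the second mutant 7 rose and 1 fell, and with a term for sex 9 rose and 4 fell. The share of all genes passing in these alternative fits is not given, so their counts describe stability only.

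**Figure D3:**
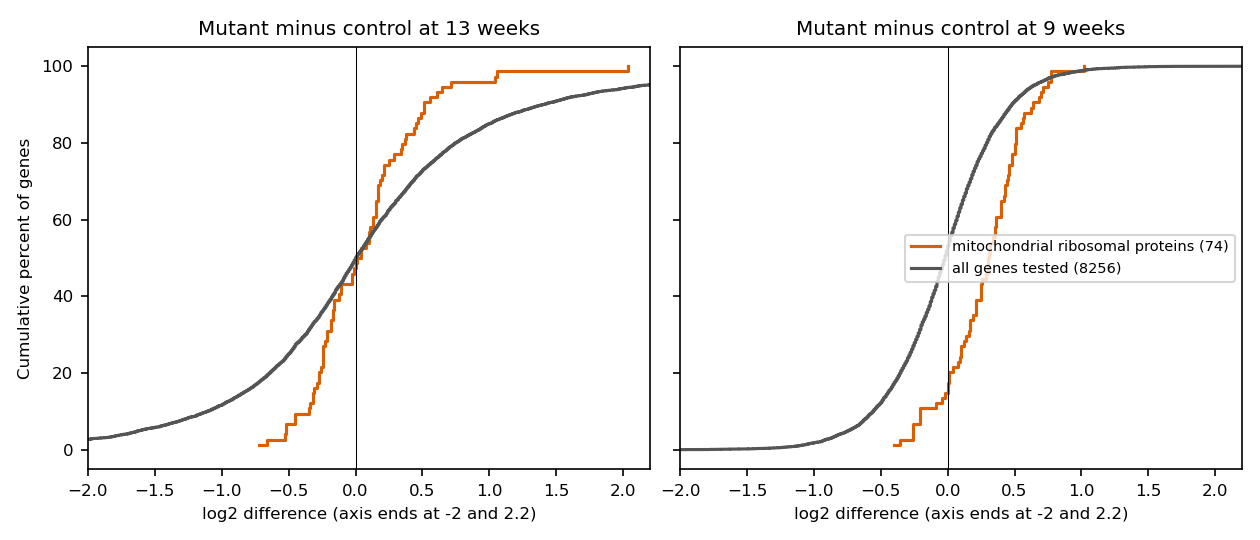
Cumulative percent of genes (y axis) by log2 difference, mutant minus control (x axis), for the 74 mitochondrial ribosomal protein genes and the 8256 genes tested, at 13 weeks on the left and at 9 weeks on the right. At 13 weeks both curves cross 50% near 0 (medians 0.02 and 0.00) and the list is narrower than all genes, while at 9 weeks the list's curve lies to the right (medians 0.31 and -0.02).

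Mrps6 had the largest difference of the list at 13 weeks. It encodes the homologue of bacterial S6, which in bacteria pairs with S18 on the platform of the small subunit. It read 10.68, 10.82 and 10.49 in mutants, against 8.46, 8.72 and 8.70 in controls, so that the lowest mutant was far above the highest control. The rise was 2.04 ± 0.16 (SE, n = 3 each, 4.10-fold, adjusted p = 1.28e-06). At 9 weeks Mrps6 read 8.80, 9.00 and 9.21 in mutants and 8.68, 8.90 and 8.69 in controls, overlapping groups that differed by 0.25 ± 0.16 (adjusted p = 0.406). In the RefSeq annotation Mrps6 overlaps Slc5a3, a myo-inositol transporter gene, whose own probe set read 2.27 to 2.43 on the 12 arrays, never above the 40th percentile, and differed by -0.06 at 13 weeks. Astrocyte and microglial markers moved with Mrps6 and with the other genes that differed at 13 weeks (array ranges of the marker means were 11.91 to 12.09 and 11.03 to 11.36 in mutants, against 9.07 to 9.36 and 8.67 to 8.94 in controls), and their part in these differences was not tested.

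Of the S18 family, Mrps18a and Mrps18b rose at 13 weeks and Mrps18c did not pass; the difference between the genes was not tested. Mrps18a read 10.66, 10.79 and 10.64 in mutants and 9.30, 9.64 and 9.96 in controls (1.06 ± 0.18, adjusted p = 0.000573). Mrps18b read 8.96, 8.85 and 8.72 in mutants and 7.85, 7.95 and 7.60 in controls (1.04 ± 0.14, adjusted p = 0.000112). Both stayed clear of the controls on every array. Mrps18c read 10.18, 10.52 and 10.19 in mutants and 10.1, 10.4 and 9.84 in controls, overlapping groups that differed by 0.18 ± 0.17 (adjusted p = 0.39). The change of the Mrps18c difference from 9 to 13 weeks was -0.52 ± 0.24 (adjusted p = 0.152). Of the other genes that rose at 9 weeks, Mrps7 differed by 0.38 at 13 weeks (adjusted p = 0.0543), Mrps24 by 0.13 and Mrpl18 by -0.24.

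Mrps22 read 9.89, 9.76 and 9.71 in mutants at 13 weeks, against 8.99, 9.10 and 9.33 in controls (0.65 ± 0.15, adjusted p = 0.00495). Mrps6, Mrps18a, Mrps18b and Mrps22 passed at 13 weeks in all 23 alternative fits, the stricter threshold of 0.01 included. Mrpl13 (0.56 ± 0.18, adjusted p = 0.0283) and Mrpl42 (0.45 ± 0.14, adjusted p = 0.0219) rose at 13 weeks as well. Mrpl13 read 11.20, 11.25 and 11.22 in mutants, against 10.38, 10.72 and 10.90 in controls, and its other probe sets differed by 0.52 and 1.11.

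Another 6 large-subunit genes rose at 13 weeks and had not passed at 9 weeks. Mrpl51, a mitochondria-specific protein, read 11.49, 11.70 and 11.27 in mutants and 10.83, 10.83 and 10.98 in controls (0.61 ± 0.14, adjusted p = 0.0049). Another of its probe sets, with a mean of 5.22, differed by -0.58, so that its rise rests on 1 probe set. Mrpl49, also mitochondria-specific, read 8.82, 8.85 and 8.80 in mutants and 8.29, 8.25 and 8.46 in controls (0.49 ± 0.13, adjusted p = 0.00858).

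Mrpl1, the homologue of the protein that forms the mobile L1 stalk in bacteria, differed by 0.71 ± 0.26 (adjusted p = 0.0423), with mutants at 7.58, 7.37 and 7.40 and controls at 7.06, 7.03 and 6.14. The third control lay far below the other controls, without that array the difference was 0.41 (adjusted p = 0.123), and the call was lost in 16 of 23 alternative fits. Mrpl9, Mrpl15 and Mrpl39 differed by 0.51, 0.51 and 0.47 (adjusted p = 0.0356, 0.0139 and 0.0177). Mrpl39 read 10.98, 11.01 and 11.04 in mutants and 10.76, 10.55 and 10.31 in controls, but its other probe set differed by 0.00. The other probe set of Mrpl9 differed by 0.60, and 3 of Mrpl15 by 0.08, 0.50 and 0.56.

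The 3 genes that fell at 13 weeks were Mrpl55, Mrps12 and Mrpl16. Mrpl55, a protein of the large subunit, read 7.64, 7.37 and 7.83 in mutants and 8.04, 8.11 and 8.84 in controls (-0.72 ± 0.22, adjusted p = 0.0212). Without the third control, its highest value, the difference was -0.46. Mrps12, the homologue of the decoding-centre protein S12 that determines streptomycin sensitivity in bacteria, read 9.42, 9.33 and 9.39 in mutants and 9.69, 9.91 and 10.14 in controls (-0.53 ± 0.15, adjusted p = 0.0129). Mrpl16 read 9.59, 9.56 and 9.46 in mutants and 9.81, 10.02 and 10.13 in controls (-0.45 ± 0.14, adjusted p = 0.0226). In all 3 genes the mutants lay below the controls without overlap. Among other named genes that did not pass, Mrpl14 differed by -0.52 (adjusted p = 0.106), Mrps36 by -0.26 and Mrps30 by 0.21.

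**Figure D4:**
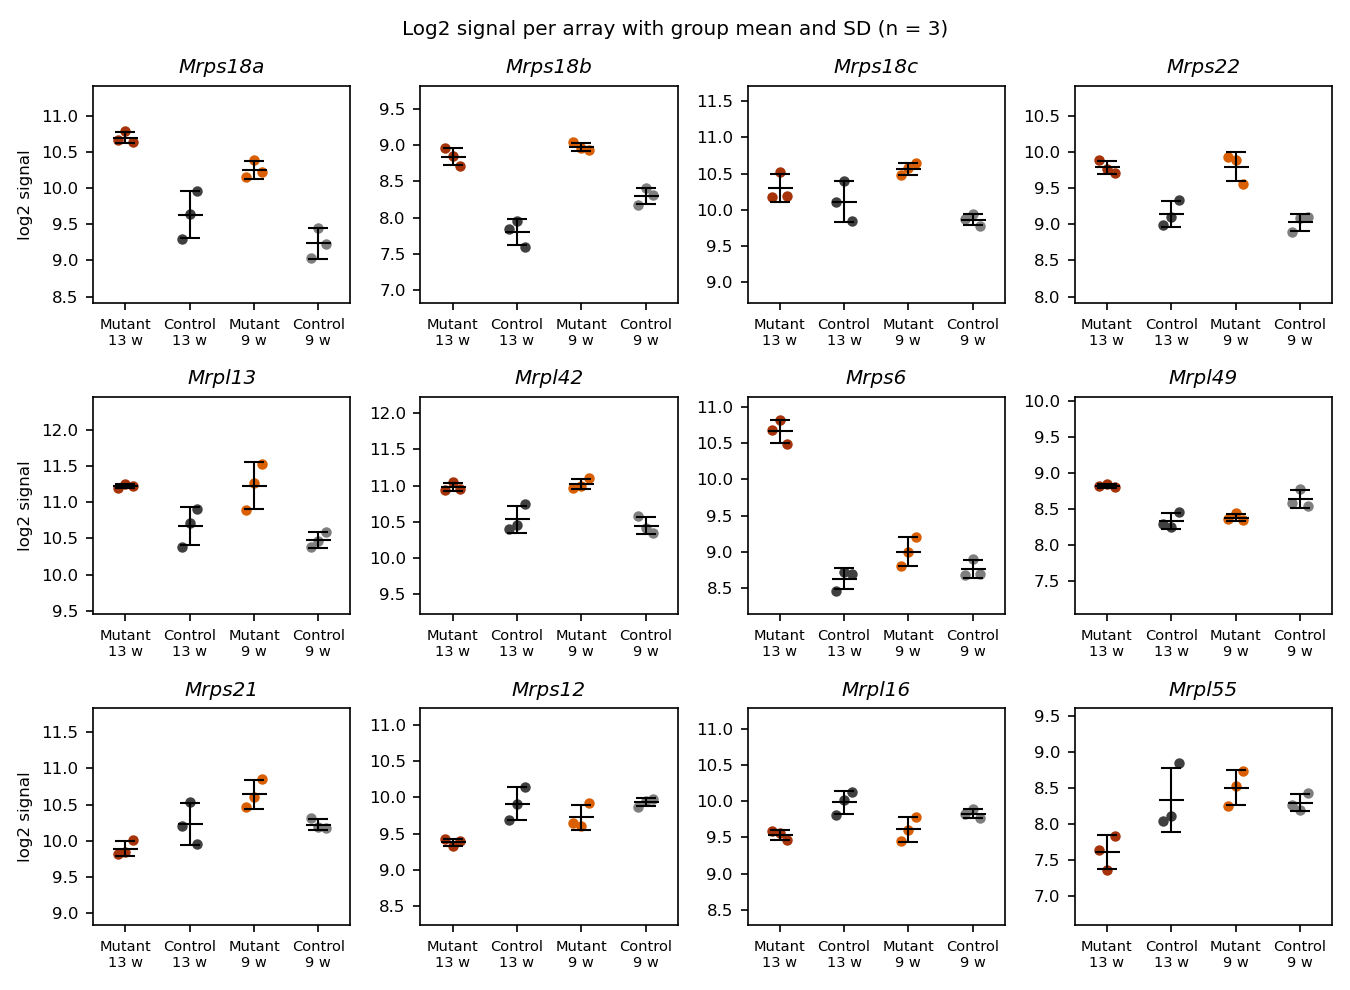
Log2 signal (y axis, each panel spanning 3 log2 units) of 12 mitochondrial ribosomal protein genes, with 1 point per array and the group mean and SD (n = 3), by group. Mrps6 rises at 13 weeks to between 10.49 and 10.82, Mrps18a and Mrps18b are higher in mutants at both ages, and Mrps12, Mrpl16 and Mrpl55 are lower in mutants at 13 weeks.

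Of the genes that rose, 5 did so at both ages: Mrps18a, Mrps18b, Mrps22, Mrpl13 and Mrpl42. They are 41.7% of the 12 genes that rose at 13 weeks and 55.6% of the 9 that rose at 9 weeks. Over all genes, 94 rose at both ages, 4.87% of the 13-week rises and 56.3% of the 9-week rises. No array enters the group means of both comparisons, but both tests use one spread per gene from all 12 arrays. The calls at the 2 ages are therefore not independent. Across the 74 genes the 2 differences had a Pearson r of 0.474 and a Spearman rho of 0.527, and r was 0.462 over all genes tested; genes of one array are not independent, and these values are given without a test. Differences were positive at both ages in 37 genes, negative at 13 weeks and positive at 9 weeks in 26, and negative at both in 10, while Mrpl49 alone was positive at 13 weeks and negative at 9 weeks.

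**Figure D5:**
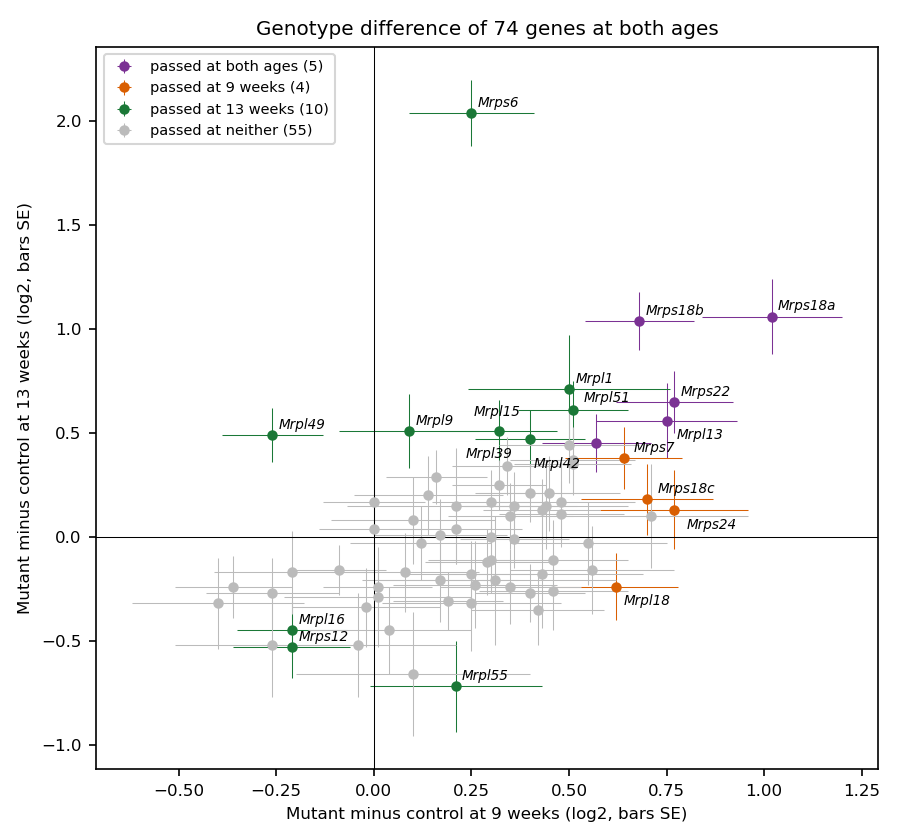
Mutant minus control difference at 13 weeks (y axis, log2) against that at 9 weeks (x axis, log2) for the 74 genes, with standard errors as bars and colours by which comparison a gene passed. The 5 genes that passed at both ages lie to the upper right, Mrps6 stands alone at 2.04 on the y axis, and 26 genes lie right of 0 and below 0.

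The change of the genotype difference between the ages, 13 weeks minus 9 weeks, had a median of -0.25 over the 74 genes and 0.01 over all genes. It passed in 5 genes, 6.76% of the list where 18.4% of all genes passed, 12.1% upward and 6.38% downward, and 12 had an unadjusted p under 0.05, against 32.1% of all genes. Mrps6 (1.79 ± 0.22, adjusted p = 0.00016) and Mrpl49 (0.75 ± 0.18, adjusted p = 0.0142) changed upward. Mrpl18 (-0.86 ± 0.22, adjusted p = 0.0194), Mrps21 (-0.76 ± 0.24, adjusted p = 0.0475) and Mrps25 (-0.67 ± 0.20, adjusted p = 0.0374) changed downward. This comparison uses the arrays of both genotype comparisons. The count was 3 when 9-week arrays were left out in turn, for each of the 6, and also without the second control, the first mutant or the second mutant at 13 weeks, while Mrps6 passed in all 22 alternative fits.

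The other 4 genes changed through different groups. Mrpl49 read 8.36, 8.44 and 8.35 in mutants at 9 weeks, against 8.59, 8.78 and 8.55 in controls, the reverse of its order at 13 weeks. Another Mrpl49 probe set differed by 0.27 at 13 weeks and 0.00 at 9 weeks, and with the mean of both the change was 0.51 (adjusted p = 0.0579). Mrpl18 read 9.58, 9.72 and 9.26 in mutants at 13 weeks, below all 3 controls at 9.78, 9.76 and 9.75, the reverse of 9 weeks. Mrps21, the homologue of bacterial S21, read 9.81, 9.85 and 10.01 in mutants and 10.21, 10.54 and 9.96 in controls at 13 weeks, and 10.46, 10.60 and 10.86 in mutants and 10.31, 10.19 and 10.17 in controls at 9 weeks. Its groups overlapped at 13 weeks but not at 9 weeks. Mrps25 read 8.79, 8.97 and 8.97 in mutants and 9.13, 9.20 and 9.20 in controls at 13 weeks, and 8.80, 8.92 and 8.95 in mutants and 8.35, 8.73 and 8.38 in controls at 9 weeks. Its mutants were alike at both ages, and another Mrps25 probe set changed by 0.11. The call was lost in 11 of 22 alternative fits for Mrps25, with an adjusted p of 0.718 for the mean of its probe sets, and in 12 of 22 for Mrps21.

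Between the ages within the mutants, 2 genes were higher at 13 weeks and 6 were lower, 10.8% of the list where 32.7% of all genes passed, 16.1% as rises and 16.6% as falls. At an unadjusted p under 0.05 there were 15 of 74, against 42.7% of all genes. All 13-week mutants lay above all 9-week mutants in 6 genes and below them in 30, against 22.8% and 31.8% of all genes. These arrays are those of the genotype comparisons too. Mrps6 rose by 1.66 ± 0.16 (adjusted p = 8.84e-06) and Mrpl49 by 0.44 ± 0.13 (adjusted p = 0.0207). The falls were those of Mrpl55 (-0.89 ± 0.22, adjusted p = 0.00945), Mrps21 (-0.75 ± 0.17, adjusted p = 0.0055), Mrps36 (-0.73 ± 0.19, adjusted p = 0.012), Mrpl23 (-0.59 ± 0.20, adjusted p = 0.0439), Mrps35 (-0.58 ± 0.16, adjusted p = 0.0155) and Mrpl19 (-0.42 ± 0.14, adjusted p = 0.0423). Mrps36 read 9.12, 9.08 and 9.00 at 13 weeks, against 9.58, 9.80 and 10 at 9 weeks. The median change was -0.20, compared with -0.10 over all genes. Without the third control at 13 weeks, which enters through the shared spread alone, 4 were higher and 16 lower, and without the first or the second mutant at 13 weeks 1 was higher and 3 were lower.

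Within the controls none of the 74 genes passed between 13 and 9 weeks (limma), where 0.145% of all genes did, 0.0848% as rises and 0.0606% as falls, and 8 had an unadjusted p under 0.05, against 17.3% of all genes. The groups did not overlap in 6 genes that were higher at 13 weeks and 9 that were lower, against 6.67% and 16.7% of all genes. The median change was 0.08, compared with -0.08 over all genes, and it was 0.18 without the first control at 13 weeks and 0.01 without the third. Mrps25 came nearest, with 9.13, 9.20 and 9.20 at 13 weeks, against 8.35, 8.73 and 8.38 at 9 weeks (0.69 ± 0.14, adjusted p = 0.0967). Mrps18b read 7.85, 7.95 and 7.60 at 13 weeks, against 8.18, 8.41 and 8.31 at 9 weeks (-0.50 ± 0.14, adjusted p = 0.142).

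Related genes were read beside the list. Of mitoribosomal proteins that carry other symbols, 4 of the 6 listed passed the filter. Chchd1, a small-subunit protein, rose by 0.99 ± 0.15 at 13 weeks (adjusted p = 0.000252) and by 1.03 ± 0.15 at 9 weeks (adjusted p = 0.00561). Gadd45gip1, a large-subunit protein, rose at 9 weeks (0.82 ± 0.19, adjusted p = 0.0372), and Dap3, a small-subunit protein that binds GTP, fell at 13 weeks (-0.47 ± 0.14, adjusted p = 0.017).

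Of 16 genes for mitoribosome assembly and modification of its RNA, 2 rose and 3 fell at 13 weeks. At 9 weeks 1 rose and 0 fell. Of all genes, 23.4% rose and 21.9% fell at 13 weeks, and 2.02% rose and 2.98% fell at 9 weeks. Mrm1, a methyltransferase of the large mitochondrial ribosomal RNA, rose at both ages, by 1.26 ± 0.19 at 13 weeks (adjusted p = 0.000255) and by 1.27 ± 0.19 at 9 weeks (adjusted p = 0.00617). Tfb1m, a methyltransferase of the small ribosomal RNA, fell at 13 weeks (-0.63 ± 0.22, adjusted p = 0.0312), as did Dhx30 (-0.80 ± 0.29, adjusted p = 0.0427), a helicase needed for assembly.

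At 13 weeks 45.3% of all genes passed, 23.4% as rises and 21.9% as falls, and the counts of the following small lists stand beside those shares. Genes that work with the ribosome had no rise at either age in translation factors or transfer RNA synthetases. Of 7 mitochondrial translation factors, 2 fell at 13 weeks (Mtfmt by 0.61 and Oxa1l by 0.47 on the log2 scale), and of 7 synthetases 3 fell (Pars2 by 1.61, Rars2 by 0.91 and Sars2 by 0.64). At 9 weeks none passed (limma), and 0 of 7 factors and 1 of 7 synthetases had an unadjusted p under 0.05. Of 16 genes for mitochondrial transcription and RNA processing, 2 rose (Pnpt1 0.82 and Slirp 0.80) and 6 fell at 13 weeks, with Ptcd1 at -1.82, and none passed at 9 weeks, where 3 had an unadjusted p under 0.05. Of 13 genes used as measures of mitochondrial content, 3 fell at 13 weeks (Vdac1 -0.68, Timm44 -1.14 and Tomm40 -0.56) and none passed at 9 weeks, where 2 had an unadjusted p under 0.05 and the median was -0.06.

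The subunits of the oxidative phosphorylation complexes tested here are all encoded in the nucleus, so the products of the mitochondrial ribosome are not among them. Their median difference was -0.15 at 13 weeks, with 2 of 75 rising and 12 falling where 23.4% of all genes rose and 21.9% fell. At 9 weeks their median was -0.01, with 1 rising where 2.02% of all genes did. Cytosolic ribosomal proteins had a median of 0.03 at 13 weeks, with 2 of 42 rising and 2 falling, and of 0.21 at 9 weeks, with 2 rising, set against the same shares of all genes. The 9-week differences of 37 of the 42 were positive, compared with 47.5% of all genes. In 17 all 3 mutants lay above all 3 controls and in 1 below, against 15% and 20.6% of all genes. Relative to all tested genes on the same array, their medians were 5.35, 5.47 and 5.73 in 9-week mutants. The 9-week controls had 5.02, 5.12 and 5.06, again without overlap. The list medians of the 3 gene groups at 9 weeks were thus 0.31, 0.21 and -0.01 for mitochondrial ribosomal, cytosolic ribosomal and oxidative phosphorylation genes. Differences between the lists were not tested.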

How the data were processed

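Striatal RNA of 12 mice was measured on Affymetrix arrays of 22690 probe sets. The authors deposited values on a log2 scale, made with GCRMA per the submitters' processing notes, whose version and steps are not given in the sources used here. They were used as deposited. By the platform annotation in GEO, 20380 probe sets carry 1 symbol, and 691 with several symbols, 1555 with none and 64 array controls were left out. Genes above the 40th percentile of their array in at least 3 arrays were kept, 8256 of 12393. One limma model (version 3.58.1, R 4.3.3, eBayes) covered all 12 arrays, with 1 coefficient per group and 8 residual degrees of freedom, and two-sided p-values were adjusted over the 8256 genes by the Benjamini-Hochberg method at a threshold of 0.05. Errors are standard errors from that fit. The p-values measure the spread between the mice of a group as labelled, and 3 arrays a group limit the precision. The code was tested on simulated data. Genes were named when they passed in a comparison, up to 12 each way, besides a panel of 14 members, of which Mrps27 had no probe set of its own used here, and the 3 members with the highest and lowest means (Mrpl27, Mrpl41 and Mrpl52, and Mrpl14, Mrps5 and Mrpl1); in other lists up to 4 that passed with the smallest p were eligible. Members, lists and alternatives were chosen with earlier results of these data known. Not reported here are some genes of the marker lists.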

Additional observations from a re-analysis of the deposited data

Results flagged for a closer look

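The difference between mutants and controls changed between the ages in 5 mitochondrial ribosomal protein genes, tested as an interaction with limma, 6.76% of the list where 18.4% of all genes passed. For Mrps6 the change was 1.79 ± 0.22 log2 (adjusted p = 0.00016), with a genotype difference of 2.04 at 13 weeks and 0.25 at 9 weeks. For Mrpl49 it was 0.75 ± 0.18 (adjusted p = 0.0142), with 0.49 at 13 weeks and -0.26 at 9 weeks. For Mrpl18 it was -0.86 ± 0.22 (adjusted p = 0.0194), with -0.24 at 13 weeks and 0.62 at 9 weeks. For Mrps25 it was -0.67 ± 0.20 (adjusted p = 0.0374), with -0.27 at 13 weeks and 0.40 at 9 weeks. For Mrps21 it was -0.76 ± 0.24 (adjusted p = 0.0475), with -0.35 at 13 weeks and 0.42 at 9 weeks. Of 22 alternative fits, Mrps21 lost its call in 12, Mrps25 in 11, Mrpl18 in 3, Mrpl49 in 2 and Mrps6 in 0.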

How the results depend on the processing

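With 3 arrays a group and one spread shared by all arrays, counts near the threshold moved with single arrays. The counts below, and those of alternative fits given earlier, are of list members alone. They are not set beside the share of all genes passing in the same fit, so they describe stability only. For the genotype difference at 13 weeks, 15 genes as reported, fitting the compared groups alone or a threshold of 0.01 gave 6 each, and leaving out arrays gave 8 to 18. At 9 weeks, 9 as reported, median centring gave 5, array weights 43 and the threshold of 0.01 gave 0, with 0 to 18 over the left-out arrays. For the change between ages, 5 as reported, the mean of all probe sets gave 3, array weights 18 and the stricter threshold 1, with 3 to 7. For age in mutants, 8 as reported, median centring gave 18, array weights 35, the stricter threshold 3 and a term for sex 4, with 4 to 20. For age in controls, 0 as reported, no filter and array weights gave 2 each, and left-out arrays 0 to 0. Array weights, estimated gene by gene because the default estimate did not converge, were 0.08 for the third control at 13 weeks and 4.39 for the second mutant at 9 weeks. Mrpl51 at 13 weeks turned to -0.17 with the mean of its probe sets, through its other probe sets. The list medians moved with median centring to -0.14 at 13 weeks, -0.39 for the change and -0.35 for age in mutants. The medians of all genes moved with it too, to -0.16, -0.13 and -0.25. The list median minus that of all genes stayed as reported, at 0.02, -0.25 and -0.09. Without the second control at 13 weeks the list median moved to 0.13 at that age, where that of all genes was 0.02. Beyond these constructions, the cause was not tested. Quantile normalization, the 60th percentile filter and a trended prior kept every count within 1.5 times. The replicate number as a block gave 16, 8, 5, 10 and 0 calls for 13 weeks, 9 weeks, the change, age in mutants and age in controls. Same-numbered samples correlated by 0.0948, 0.118 and 0.184 at 13 weeks and by 0.000607, 0.0732 and -0.0731 at 9 weeks. Correlations of samples with different numbers had both signs at each age. With 3 arrays a group, such small values cannot decide whether the numbers pair the mice.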
